A study of Mus musculus with 15 samples.

Results

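The respiratory chain subunits examined here are the proteins that make up complexes I to V of the inner mitochondrial membrane, and they are the product of both genomes of the cell. They were chosen by gene symbol among the protein-coding genes of GENCODE M21: mitochondrial genes for Nd, Co, Cytb and Atp subunits, and nuclear genes of the Nduf, Sdh, Uqcr, Cox4 to Cox8 and Atp5 families. The rule found 99 genes of the 34554 genes and added sequences measured, 13 on mitochondrial DNA and 86 in the nucleus. It uses symbols and no measured value, but it was set with earlier results of these data known. Of these, 93 passed the filter on low counts and were tested, all 13 mitochondrial and 80 nuclear members. The rule takes in 2 gene identifiers of the symbol Atp5o, of which the second shares exons with the first and held a mean of 3.89 estimated counts per library.

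Complex I passes electrons from NADH to coenzyme Q, complex II does so from succinate, complex III hands them to cytochrome c, and complex IV to oxygen. Complexes I, III and IV pump protons across the membrane, and complex V, the ATP synthase, lets them flow back to make ATP. Mitochondrial DNA encodes hydrophobic core subunits of complexes I, III, IV and V and none of complex II. Its genes are transcribed as long polycistronic RNAs by a polymerase of their own, while the nuclear subunits are transcribed one by one in the nucleus and imported as proteins. Doxycycline, the drug used here to switch on transgenes, belongs to the tetracyclines, which bind bacterial ribosomes and can also slow the related ribosomes of mitochondria.

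The libraries came from normal pancreas ductal organoids of mice, hollow epithelial cultures in Matrigel. The 3 lines called CA19-9 inducible (A217, A220 and A225) carry all alleles needed to make CA19-9, a sialylated carbohydrate that mice do not make on their own, when doxycycline is given. The 2 genetic negative lines (A218 and A223) lack 1 of these alleles, and the labels do not say which one, which promoter drives it, or how many animals the lines came from. All 5 lines received 1 µg/ml doxycycline for 0, 4 or 24 h, 1 library per line and time, so each inducible group has 3 libraries and each negative group 2. The p-values measure the spread between lines within these groups. Those given with the line as a block, which compares each line with itself, measure how the change varies over lines. The medium was renewed 24 h before harvest in every culture, and all were harvested together.

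Library totals ranged from 47915632 to 59411540 estimated counts. Human transcripts among the added sequences held 1.67 to 3.0 CPM (the count scaled to a common library size) in the inducible lines at 0 h, 695.1 to 1046.3 CPM at 4 and 24 h, and 0.713 to 1.99 CPM in the negative lines. Of 10 duct markers, 9 were above 1 TPM (a level scaled for transcript length and library size), and their summed level ran from 9735.4 to 16218.0 TPM. That sum moved with time, from a mean of 11736.6 TPM at 0 h to 15261.1 TPM at 24 h, and its part in the results was not tested. The summed levels of acinar, endocrine, fibroblast and immune markers stayed at or under 2.95, 0.267, 0.973 and 0.517 TPM, and those of endothelium were 2.49 to 5.04 TPM. These are bulk samples, so fewer cells of a kind and less RNA per cell cannot be told apart.

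Several stretches of sequence set what the counts can show. On mitochondrial DNA the open reading frames of mt-Atp8 and mt-Atp6 overlap by 43 bases, and those of mt-Nd4l and mt-Nd4 by 7 bases, so that reads over these stretches belong to both genes of a pair. The shared bases are given 5′ to 3′ on the plus strand of GRCm38, at M:7927-7969 and M:10167-10173.
mt-Atp8 and mt-Atp6: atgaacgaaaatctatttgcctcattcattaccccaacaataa
mt-Nd4l and mt-Nd4: atgctaa
A nuclear copy of mitochondrial DNA on chromosome 1 carries a run of pseudogenes that repeat mitochondrial genes nearly base for base. Gm28661 (chr1:24614885-24615565) was identical to mt-Co2 over 681 bases, Gm28437 to mt-Co3 over 783 bases and Gm10925 to mt-Atp6 over 678 bases. Gm28438 (chr1:24612775-24613119, minus strand) differed from mt-Nd3 over 345 bases by T3C, counted from 1 at the first base of the gene. The capital in these first bases marks that single difference.
mt-Nd3: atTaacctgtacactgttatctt
Gm28438: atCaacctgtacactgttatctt
Reads from the rest of these stretches match gene and copy equally well, and the program that made the counts divides such reads between them.

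These copies held many counts. Of the counts assigned to gene and copy together, the copy held 87.03% for mt-Co2, 59.85% for mt-Co3, 38.41% for mt-Nd3, 34.53% for mt-Atp6 and 8.01% for mt-Co1, whose copy Gm29216 repeats the end of the gene with the difference A1066T. The division was not steady: Gm28438 held between 2119.0 and 13530.7 counts in a library. By contrast the copies of mt-Nd4 and mt-Nd4l, also identical over their length, held 0 counts. Among nuclear members, Atp5g2 (c subunit of the ATP synthase rotor) gave 86.12% of the counts to Gm10175, Ndufb4 52.6% to Ndufb4c and Ndufa12 27.46% to Gm15920. For Ndufa12 the division differed between lines. At 0 h it stood at 114.7 CPM as assigned and 115.3 CPM with the copy in A225. In A217 these values were 78.3 and 119.7 CPM, and A220, A218 and A223 were like A217. In all, 9 mitochondrial members had 11 such copies and 23 nuclear members had 45, at 95% identity or more over at least 80% of the copy. The values below are therefore given as assigned and, where it matters, with the counts of near copies added to the gene.

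**Figure D1:**
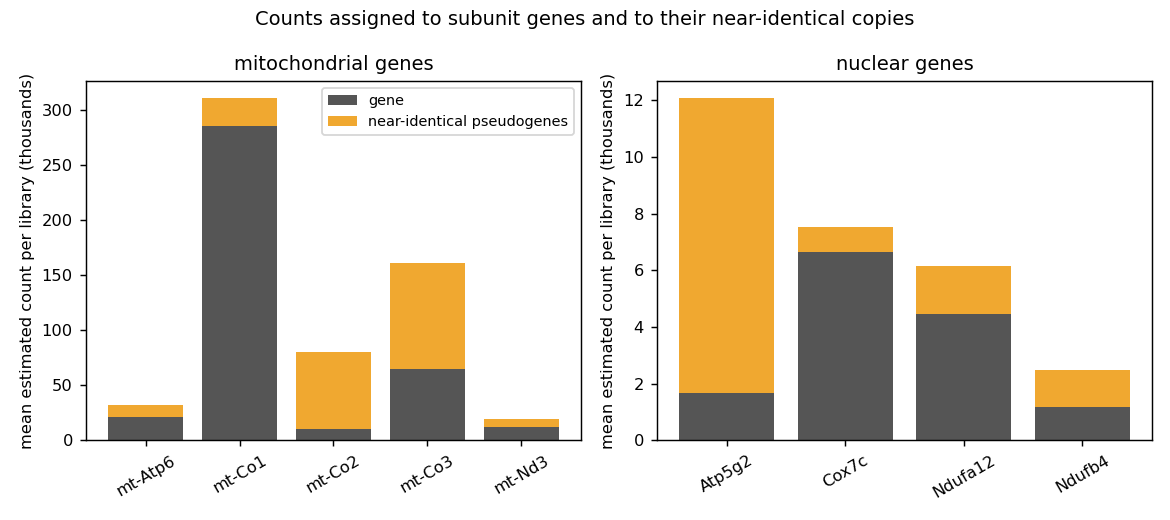
Mean estimated count per library assigned to mitochondrial (left) and nuclear (right) subunit genes in dark grey and to their near-identical pseudogenes in orange, over 15 libraries, for genes whose copies hold many counts. Copies held most of the counts of mt-Co2, mt-Co3 and Atp5g2.

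By level per length, the mitochondrial members covered a range of 63.8-fold, from mt-Nd5 at a mean of 90.0 TPM to mt-Co1 at 5740.6 TPM over the 15 libraries. mt-Co1 encodes the subunit of complex IV where oxygen is reduced. Next in order stood mt-Co3 (2853.0 TPM), mt-Atp8 (2000.2 TPM), mt-Nd3 (1717.0 TPM), mt-Nd1 (1362.2 TPM) and mt-Atp6 (1119.5 TPM), followed by mt-Co2 (545.6 TPM) and mt-Cytb (491.3 TPM). mt-Atp8 held a mean of 4997.1 counts over 204 bases and mt-Nd5 5363.2 counts over 1824 bases. That gap per base is smaller than the gap in TPM, so the rank of so short a gene is less sure. The other complex I genes were low and close together, mt-Nd2 at 148.0 TPM, mt-Nd6 at 95.7 TPM, mt-Nd4l at 95.6 TPM and mt-Nd4 at 95 TPM. The ranges over libraries of mt-Nd4, mt-Nd4l, mt-Nd5 and mt-Nd6 overlapped. With the TPM of near copies added the order was different: mt-Co1 (7778.2 TPM), mt-Co3 (7123.9 TPM), mt-Co2 (4219.4 TPM), mt-Nd3 (2816.7 TPM), mt-Atp8 (2000.2 TPM), mt-Atp6 (1714.7 TPM) and mt-Nd1 (1362.2 TPM). The copy Gm29216 has 492 bases against 1545 of mt-Co1, so adding its TPM raises mt-Co1 by more than its 8.01% of counts. Which of mt-Co1 and mt-Co3 leads is therefore not settled by these sums.

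The tested nuclear members had a median of 253.5 TPM, led by Atp5b, the catalytic beta subunit of the ATP synthase, at 2025.0 TPM. The highest nuclear member of the other complexes was Ndufa4 for the Nduf family (640.0 TPM), Sdhd for complex II (271.0 TPM), Uqcrh for complex III (662.3 TPM) and Cox6b1 for complex IV (916.3 TPM). Ndufa4 is counted here with complex I by its symbol, although its protein is now placed in complex IV. Median levels of the nuclear members were 192.8 TPM in complex I, 197.3 in complex II, 409.0 in complex III, 480.9 in complex IV and 477.1 in complex V.

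Among subunits that exist as alternative isoforms, the widely expressed forms stood far above the muscle, lung or testis forms. Cox4i1 had a mean of 772.4 TPM, Cox6a1 605.3, Cox8a 867.9 and Cox7a2 370.4 TPM. The muscle form Cox7a1 stood at 5.99 TPM and the testis form Cox6b2 at 7.34 TPM. The 6 untested members were all alternative forms or close relatives of other members: Cox4i2 held 59 counts in all 15 libraries together, Ndufa4l2 53, Cox8b 19 and Cox7b2 4. Cox6a2 and Cox8c were at 0 counts, which allows up to 0.00383 CPM (3 counts over all libraries, counting error only).

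**Figure D2:**
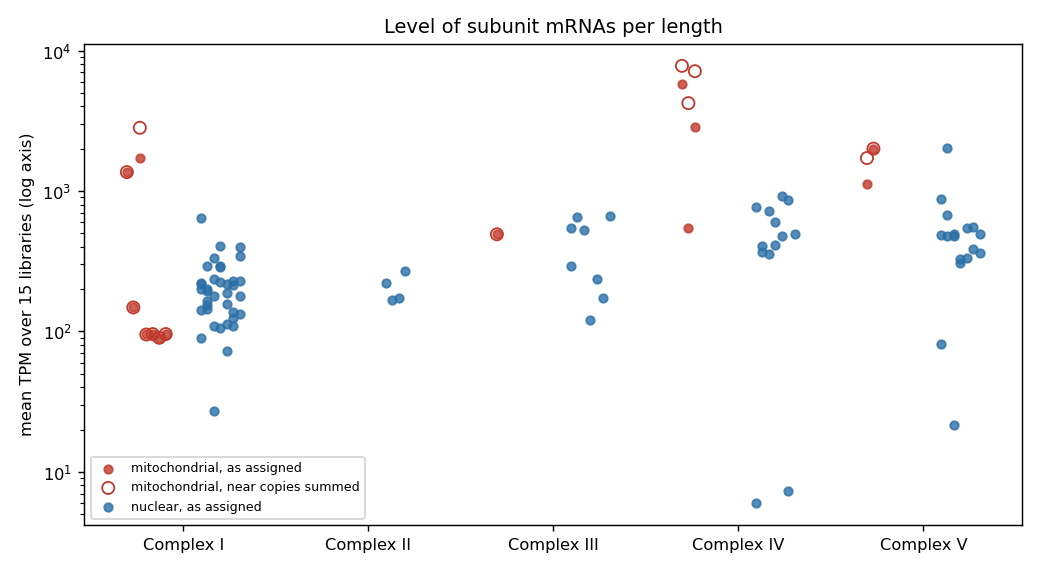
Mean TPM over 15 libraries (log axis) of each member above 1 TPM, by complex, with mitochondrial members in red and nuclear members in blue. Open circles add the TPM of near-identical pseudogenes to the mitochondrial gene, and the 4 lowest mitochondrial genes lie near 90.0 to 95.7 TPM.

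The first question was how the 2 parts of the chain differed by hours of doxycycline over the 5 lines. At 24 h the mitochondrial members were higher than at 0 h while the median change of the nuclear members was close to 0. In edgeR's quasi-likelihood test with Benjamini-Hochberg adjustment over all tested features, 9 of 13 mitochondrial members rose and 0 fell, with a median log2 change of 0.36. Of the 80 nuclear members 6 rose and 0 fell, with a median of 0.05, beside a median of 0.001 over all tested features. Among all 16462 features 10.9% were called higher and 7.98% lower, so the nuclear share lies near the background for higher calls.

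Adding near copies gave 11 of 13 mitochondrial members higher with a median of 0.53, while 6 nuclear members were higher, against 10.9% of all features higher and 8.0% lower. With the organoid line as a block, which compares each line with itself, 11 mitochondrial members were called higher and 1 lower. The block also called 20 nuclear members higher and 2 lower, against 20.8% and 15.6% of all features. With both block and near copies, 12 mitochondrial members were higher and 0 lower, beside 20.9% and 15.7% of all features, mt-Co3 being the one not called. The medians hardly moved, at 0.36 for mitochondrial and 0.05 for nuclear members with the block and as assigned.

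**Figure D3:**
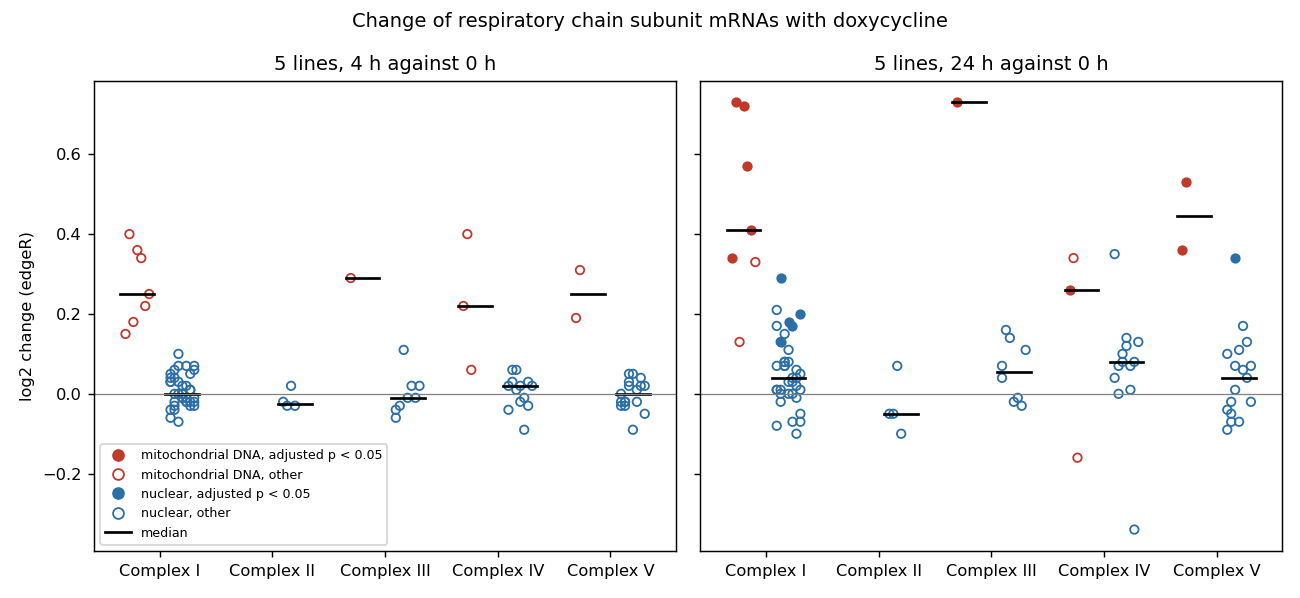
log2 change (edgeR) of each tested member at 4 h (left) and 24 h (right) against 0 h over 5 lines, by complex, as assigned; filled points have an adjusted p below 0.05, bars are medians, and the second Atp5o identifier is left out. At 24 h 9 of 13 mitochondrial members (red) and 6 of 80 nuclear members (blue) were called, all higher.

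The mitochondrial complex I genes encode the proton-pumping membrane arm, and 5 of 7 rose at 24 h with a median log2 change of 0.41. mt-Nd2 stood at 68.4, 60.4 and 76.2 CPM at 0 h in A217, A220 and A225 and at 70.5 and 66.5 CPM in A218 and A223. At 4 h it stood at 87.9, 87.1, 89.8, 85.8 and 99.1 CPM in the same order of lines, and at 24 h at 86.9, 133.4, 136.1, 94.0 and 117.5 CPM. Every library at 4 and 24 h lay above every 0 h library. This was true of 2.16% of all tested features at 4 h and of 7.88% at 24 h. A217 alone did not go further between 4 and 24 h. The log2 change at 24 h was 0.73 (SE 0.11, 1.66-fold, edgeR adjusted p = 0.00127), higher in 5 of 5 lines.

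mt-Nd4 showed the smallest steps in the same lines, A217 and A218. It stood at 65.0, 61.7, 64.2, 59.2 and 57.3 CPM at 0 h in A217, A220, A225, A218 and A223, and at 75.0, 126.0, 108.8, 83.5 and 112.6 CPM at 24 h. The groups did not overlap, and the log2 change was 0.72 (SE 0.12, edgeR adjusted p = 0.00221). mt-Nd4l (0.57, SE 0.12), mt-Nd5 (0.41, SE 0.09) and mt-Nd1 (0.34, SE 0.08) rose as well, with edgeR adjusted p of 0.00594, 0.0104 and 0.0135. Every 24 h library lay above every 0 h library for mt-Nd4l and mt-Nd5, while mt-Nd1 overlapped. mt-Nd4l is the least counted of these, with 8.59, 7.59, 7.6, 8.11 and 7.61 CPM at 0 h and 9.25, 14.6, 12.7, 10.1 and 11.9 CPM at 24 h in that order of lines.

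mt-Nd6, the one subunit gene on the other strand of mitochondrial DNA, had a log2 change of 0.33 (SE 0.11, edgeR adjusted p = 0.0545), and 0.32 with the line as a block (adjusted p = 0.0146). It was higher in 4 of 5 lines, with A217 at 23.1 CPM at 0 h and 21.4 CPM at 24 h. Its exons share 14 bases with mt-Nd5 on the opposite strand, 2.7% of the gene, and the use of strand in counting is not stated. mt-Nd3 shows how the nuclear copy matters. As assigned it ranged from 193.6 to 251.4 CPM at 0 h and from 200.7 to 280.9 CPM at 24 h, with a log2 change of 0.13 (edgeR adjusted p = 0.582). With Gm28438 added, it stood at 291.6, 289.3, 272.5, 330.4 and 255.9 CPM at 0 h and at 509.9, 433.5, 356.6, 506.5 and 337.6 CPM at 24 h. These groups did not overlap, and the log2 change was 0.57 (edgeR adjusted p = 0.0132).

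mt-Cytb, the heme-bearing core of complex III and its single mitochondrial gene, stood at 310.7, 231.2, 312.3, 236.6 and 218.3 CPM at 0 h in A217, A220, A225, A218 and A223. It stood at 333.8, 299.3, 315.5, 307.0 and 337.6 CPM at 4 h and at 339.0, 465.7, 524.9, 334.4 and 490.0 CPM at 24 h. A220, A225 and A223 carried the larger part of the step after 4 h. The log2 change at 24 h was 0.73 (SE 0.13, 1.65-fold, edgeR adjusted p = 0.0029), higher in 5 of 5 lines.

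The 3 complex IV genes did not move alike as assigned. mt-Co1, the most abundant member, went from 5696.9 to 5346.9 CPM in A217, from 4915.6 to 6217.5 in A220, from 5435.8 to 6788.4 in A225, from 4577.6 to 5121.0 in A218 and from 4065.6 to 6002.9 in A223. It was higher in 4 of 5 lines, the groups overlapped, and the log2 change was 0.26 (SE 0.08, edgeR adjusted p = 0.0299). mt-Co2, which takes electrons from cytochrome c, had a log2 change of 0.34 as assigned (SE 0.19, edgeR adjusted p = 0.249; 0.0133 with the line as a block). With Gm28661 added it stood at 1368.6, 1315.6, 1579.4, 1275.1 and 1238.2 CPM at 0 h and 1511.7, 1929.2, 2113.3, 1468.7 and 1749.9 CPM at 24 h in A217, A220, A225, A218 and A223. All 5 lines were higher, though the groups overlapped, and the log2 change was 0.37 (edgeR adjusted p = 0.0113).

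mt-Co3, a structural subunit of complex IV, was the one mitochondrial member of the 13 without a positive estimate at 24 h as assigned. It stood at 1353.8, 1246.7, 1316.4, 1200.3 and 1225.5 CPM at 0 h and at 1371.2, 1144.9, 1231.0, 811.2 and 1144.6 CPM at 24 h in A217, A220, A225, A218 and A223. The log2 change was -0.16 (SE 0.10, edgeR adjusted p = 0.31), and with the line as a block it was -0.18 and called lower (adjusted p = 0.0346). With Gm28437 added the sign was the other way, 0.08 (edgeR adjusted p = 0.347, and 0.167 with the block). No direction is therefore given for mt-Co3.

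Both mitochondrial complex V genes rose at 24 h. mt-Atp8 (a small subunit of the membrane part) had a log2 change of 0.53 (SE 0.13, edgeR adjusted p = 0.0164), from 78.3, 70.6, 88.7, 72.1 and 83.6 CPM at 0 h to 90.2, 125.6, 143.5, 102.3 and 108.7 CPM at 24 h. The groups did not overlap. mt-Atp6, the subunit that forms the proton channel, changed by 0.36 (SE 0.11, edgeR adjusted p = 0.0401) as assigned and by 0.55 with Gm10925 added (adjusted p = 0.0105). As assigned it was higher in 4 of 5 lines, A225 going from 448.7 to 403.5 CPM, whereas with the copy A225 went from 653.1 to 945.8 CPM.

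**Figure D4:**
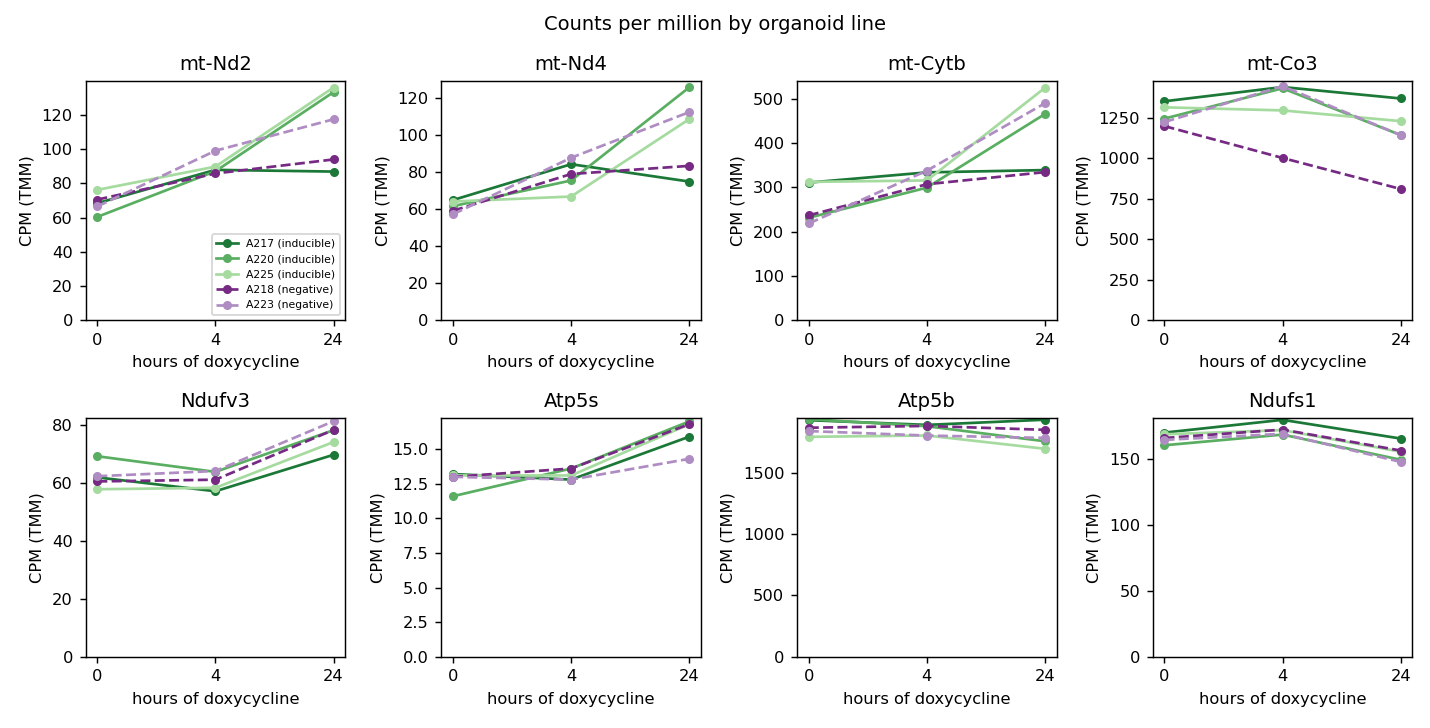
CPM (after TMM scaling) of 4 mitochondrial and 4 nuclear members, as assigned, by hours of doxycycline (categories, not to scale), 1 line per organoid line, solid green for inducible and dashed purple for negative lines; axes start at 0. mt-Nd2, mt-Nd4 and mt-Cytb were higher at 24 h in all 5 lines, and Atp5b lay between 1696.5 and 1937.6 CPM throughout.

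The size of the mitochondrial step differed between lines. The median log2 change of the 13 genes at 24 h, near copies added, was 0.13 in A217, 0.59 in A220, 0.48 in A225, 0.30 in A218 and 0.59 in A223. The nuclear medians in the same lines were 0.04, -0.03, 0.04, 0.12 and 0.04. At 4 h the mitochondrial medians were 0.18, 0.26, 0.02, 0.27 and 0.55, so A223 stood at 4 h near its 24 h value while A225 stood near its 0 h value. Summed over the 13 genes and their copies, mitochondrial members held 1.203% ± 0.117 (SD, n = 5) of all counts at 0 h, 1.34% ± 0.049 at 4 h and 1.403% ± 0.139 at 24 h. Nuclear members held 1.279% ± 0.038, 1.286% ± 0.039 and 1.249% ± 0.051. The ratio of the first to the second was 0.941 ± 0.095, 1.042 ± 0.033 and 1.127 ± 0.151, and the ranges at 0 h (0.843 to 1.075) and 24 h (0.962 to 1.339) overlapped.

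**Figure D5:**
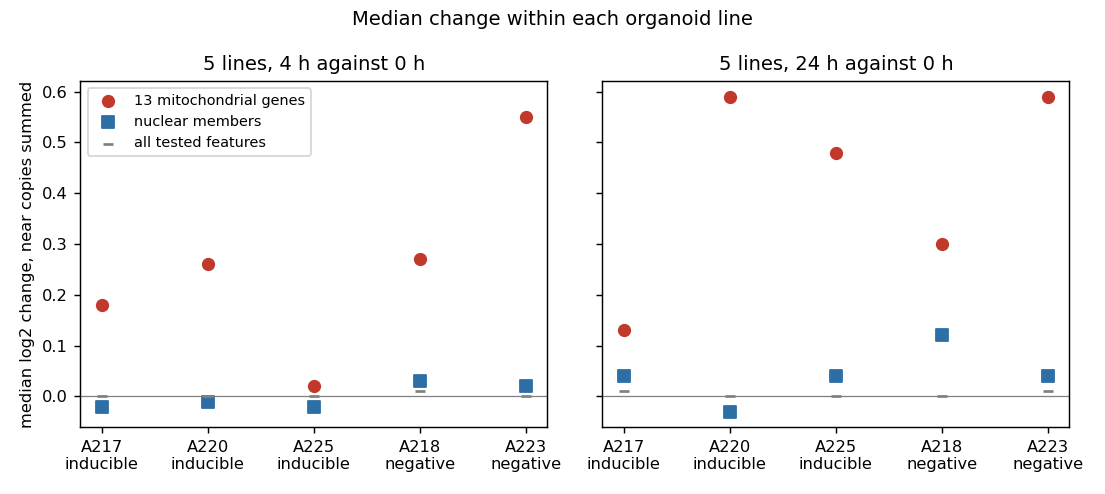
Median log2 change within each organoid line at 4 h (left) and 24 h (right) against its own 0 h library, near copies added, for the 13 mitochondrial genes (red circles), the tested nuclear members (blue squares) and all tested features (grey bars). At 24 h the mitochondrial medians run from 0.13 (A217) to 0.59 (A220 and A223), and the nuclear medians from -0.03 to 0.12.

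Of the 6 nuclear members called higher at 24 h, 5 belong to complex I. Ndufv3, an accessory subunit of the module that binds NADH, stood at 62.0, 69.3, 57.9, 60.6 and 62.4 CPM at 0 h and at 69.8, 78.3, 74.2, 78.4 and 81.4 CPM at 24 h in A217, A220, A225, A218 and A223. Every 24 h library lay above every 0 h library, and the log2 change was 0.29 (SE 0.05, edgeR adjusted p = 0.00319). Atp5s (Dmac2l in RefSeq), known as coupling factor B of complex V, went from 13.2, 11.6, 13.1, 13 and 13 CPM to 15.9, 17.0, 16.8, 16.8 and 14.3 CPM, a log2 change of 0.34 (SE 0.06, edgeR adjusted p = 0.00282). At 4 h neither was called, with log2 values of -0.03 for Ndufv3 and 0.05 for Atp5s (edgeR adjusted p of 0.908 and 0.879).

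The accessory complex I subunits Ndufa3 (0.20, SE 0.06), Ndufa7 (0.18, SE 0.05) and Ndufa13 (0.17, SE 0.05) rose by less, with edgeR adjusted p of 0.0432, 0.0183 and 0.0239. Ndufs4, an accessory subunit needed for a stable complex, had the smallest of these changes at 0.13 (SE 0.04, edgeR adjusted p = 0.0378). It is named because so few were called, after its value was seen. A correction for GC content and length ended the calls of Ndufa3 (log2 0.12, adjusted p = 0.342) and Ndufa7 (log2 0.12, adjusted p = 0.171) and left 4 nuclear members higher and 1 lower, against 11.3% and 11.6% of all features. The same correction kept 8 of 13 mitochondrial members, mt-Atp6 being lost with a log2 change of 0.34 in place of 0.36 (adjusted p = 0.0795). Tested mitochondrial members have GC contents of 31.9 to 41.1% and nuclear ones of 41.9 to 61.1%, ranges that do not meet. Tssk6, on the opposite strand, overlaps 375 exon bases of Ndufa13 but held a mean of 72.0 counts against 6119.0.

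By complex, the nuclear medians at 24 h were 0.04 for the 37 tested members of complex I, -0.05 for the 4 of complex II, 0.05 for the 8 of complex III, 0.08 for the 13 of complex IV and 0.02 for the 18 of complex V. Complex II, which has no mitochondrial gene, was the only one with a nuclear median below 0 in this fit, and none of its members was called in it. Sdhd, one of its membrane anchors, stood at 220.9, 207.3, 194.8, 211.5 and 203.3 CPM at 0 h and at 211.1, 185.7, 183.8, 200 and 186.7 CPM at 24 h. It was lower in every line, with a log2 change of -0.10 (SE 0.05, edgeR adjusted p = 0.181), called lower with the line as a block (adjusted p = 0.0121). Sdha, the flavin-bearing subunit, had -0.05 (SE 0.04) and Sdhb, with the iron-sulphur clusters, -0.05 (SE 0.04). Sdhc, the remaining member, went the other way, from a mean of 137.5 CPM at 0 h to 144.7 CPM at 24 h. Among the lines only A220 was lower for Sdhc, going from 148.9 to 147.6 CPM. Atp5b, the most abundant nuclear member, had -0.05 (SE 0.04, edgeR adjusted p = 0.439).

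Counting directions alone, 24 of the 80 nuclear members were higher at 24 h in all 5 lines (against 21.8% of all tested features) and 6 were lower in all 5 (against 18.1%). For mitochondrial members the counts were 7 and 0 of 13. Every 24 h library lay above every 0 h library for 6 mitochondrial members as assigned and 7 with copies added, beside 7.88 and 7.91% of all tested features. The 4 nuclear members of which this was true were Atp5s, Ndufv3, Ndufb3 and Ndufb9, 5.0% of the 80. At 4 h it was true of 3 mitochondrial members, mt-Nd2, mt-Nd4 and mt-Nd4l, and of 0 nuclear members, beside 2.16% of all tested features.

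At 4 h no member was called in either direction. Among all features 0.553% were higher and 0.364% lower in edgeR's test. At an unadjusted p under 0.05 stood 8 of 13 mitochondrial members and 1 of 80 nuclear members, beside 12% of all features, and DESeq2 called 1 member, mt-Nd2. All 13 mitochondrial members had a positive log2 value at 4 h, with a median of 0.25, whereas 40 of 80 nuclear members did, with a median at 0.00. With the line as a block, mt-Nd2 (0.39, adjusted p = 0.0155), mt-Co2 (0.41, adjusted p = 0.0173) and mt-Atp8 (0.30, adjusted p = 0.048) were called higher in edgeR's test, where 3.91% of all features were higher and 4.96% lower. With near copies added the block no longer called mt-Co2 (0.18, adjusted p = 0.0807) and called mt-Nd3 in its place (0.60, adjusted p = 0.000574), with 3.93% of all features higher.

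From 4 to 24 h edgeR's test called 1 mitochondrial member higher, mt-Cytb (0.43, SE 0.13, adjusted p = 0.0333), and 5 nuclear members higher, beside 11.2% of all features. Those were Ndufv3 (0.33), Atp5s (0.29), Ndufa3 (0.21), Ndufa7 (0.19) and Ndufa13 (0.18), the same 5 that led at 24 h against 0 h, a comparison that shares the 24 h libraries. Of the nuclear members 2 fell, beside 7.99% of all features. These were Ndufs1, the core iron-sulphur subunit of the NADH module, and Ndufab1, the mitochondrial acyl carrier protein. Ndufs1 stood at 179.8, 168.6, 172.0, 172.4 and 169.2 CPM at 4 h and at 165.6, 149.5, 155.6, 156.5 and 147.9 CPM at 24 h in A217, A220, A225, A218 and A223. These groups did not overlap, and the log2 change was -0.15 (SE 0.04, edgeR adjusted p = 0.0127). Such separation between 4 and 24 h was not counted over all features. Ndufab1 changed by -0.13 (SE 0.04, edgeR adjusted p = 0.028), a call that ended with the GC and length correction at a log2 change of -0.11 (adjusted p = 0.127). With the line as a block 4 mitochondrial and 18 nuclear members were higher and 1 and 3 lower, beside 21.1% and 15.8% of all features.

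The second question was whether the lines able to make CA19-9 responded differently. The response of the inducible lines minus that of the negative lines was called for 0 of 93 members at 4 h and at 24 h, by edgeR with or without the line as a block, by DESeq2 and by limma-voom. Of all features edgeR called 0.0121% at each time, or 0.0182% at 4 h and 0.0243% at 24 h with the block. DESeq2 called 3 features higher and 2 lower at 4 h, and 3 higher and 1 lower at 24 h. By limma-voom 2 were higher and 0 lower at each time. At an unadjusted p under 0.05 stood 1 mitochondrial and 0 nuclear members at 4 h, and 0 and 3 at 24 h, beside 1.43% and 2.51% of all features. For mt-Nd2 the 24 h difference of responses was 0.17 (SE 0.23), for mt-Cytb -0.22 (SE 0.26), for mt-Nd4 -0.05 (SE 0.25) and for Ndufv3 -0.14 (SE 0.11). These standard errors are from the fit without the line as a block. In that fit a difference between the responses of the genotypes within about 2 of them was not detectable, and larger ones could be missed too. The members at an unadjusted p under 0.05 were not called after adjustment over all features. The median change of mitochondrial members at 24 h was 0.39 in the inducible and 0.44 in the negative lines. At 4 h it was 0.19 in the inducible and 0.38 in the negative lines, and the median difference of responses was -0.12, above 0 for 4 of the 13 genes. Before doxycycline, inducible and negative lines differed in 0 of 93 members by edgeR, DESeq2 and limma-voom. Of all features edgeR and limma-voom called 0.0%, and DESeq2 called 2 features higher and 4 lower. In edgeR's test 2 members had an unadjusted p under 0.05, 1 of each genome, beside 3.58% of all features.

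Genes that serve the chain without belonging to it were examined as lists. Of 30 tested genes for the upkeep and reading of mitochondrial DNA, 1 rose and 8 fell at 24 h (median -0.13), beside 10.9% of all features higher and 7.98% lower. The ones that fell include Twnk, the helicase of mitochondrial DNA replication, from 29.9 ± 1.03 to 22.8 ± 1.41 CPM (SD, n = 5; log2 -0.40, edgeR adjusted p = 0.000372). Mgme1, a nuclease of the same process, changed by -0.45 (edgeR adjusted p = 0.01) and Fastkd1, an RNA-binding protein of mitochondria, by -0.36 (edgeR adjusted p = 0.0153). Hsd17b10, a subunit of the nuclease that cuts tRNAs from the long transcripts, rose from 88.5 ± 3.97 to 102.6 ± 1.21 CPM (SD, n = 5; log2 0.21, edgeR adjusted p = 0.000644). With the line as a block 13 of the 30 fell and 1 rose.

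For this list and those that follow, the same shares of all features apply, 10.9% higher and 7.98% lower, or 20.8% and 15.6% with the line as a block. Of 12 nuclear regulators of mitochondrial genes, 0 rose and 3 fell at 24 h (median -0.01). Ppargc1b, a coactivator, went from 4.23 ± 0.673 to 2.62 ± 0.722 CPM (SD, n = 5; log2 -0.69, edgeR adjusted p = 0.0232). Nrf1, which binds promoters of many nuclear subunits, changed by -0.17 (edgeR adjusted p = 0.0474), as did Gabpb2, a partner subunit of an ETS factor (-0.17, edgeR adjusted p = 0.0135). Of 45 assembly factors 3 rose and 0 fell (median -0.01): Cox14 (0.26), Sdhaf4 (0.22) and Timmdc1 (0.17), which act on complexes IV, II and I. The line as a block gave 8 higher and 3 lower.

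Of 20 genes for electron carriers and coenzyme Q, 3 rose and 1 fell (median 0.02). Sqor, which passes electrons from sulphide to coenzyme Q, rose from 152.0 ± 7.51 to 186.1 ± 4.96 CPM (SD, n = 5; log2 0.29, edgeR adjusted p = 0.00261). Coq8b (0.30) and Coq10b (0.29), proteins of coenzyme Q metabolism, rose too, and Dhodh, the pyrimidine enzyme that uses coenzyme Q, fell by 0.20 on the log2 scale (edgeR adjusted p = 0.0261). With the line as a block the list had 6 higher and 4 lower. Of 12 tested carriers of adenine nucleotides and regulators of the chain 2 rose, Higd2a (0.24) and Chchd2 (0.12), and 0 fell, or 5 and 1 with the block. Among the 13 tested alternative isoforms 0 were called, or 4 higher with the line as a block.

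Promoters of the nuclear members were searched for the letters bound by factors known to act on such genes. Windows of 300 bases around the start (RefSeq, GRCm38.p6) were matched for 69 of 85 nuclear symbols and searched on both strands. GCGCNTGCG, a core of the NRF1 motif, was in at least 1 window of 33.3% of the matched members and of 7.12% of 27025 genes. CCGGAAG, an ETS motif, was in 23.2% against 9.93%, and AAGATGGCG, a core of the YY1 motif, in 10.1% against 1.64%. The 27025 genes were all those with a window and were not limited to genes expressed in these libraries. Members were not compared with other genes of like expression. Of the 6 nuclear members that rose at 24 h, Ndufs4 had a match, to the YY1 letters, and windows of Ndufv3, Atp5s, Ndufa3, Ndufa7 and Ndufa13 held none of these letters. Sdhd is shown as an example of a promoter with both an NRF1 and an ETS match, a pair also found for Atp5h, Atp5k, Atp5l and Cox6a1. Its matches are in capitals and in the reverse orientation, over the 250 bases before its start (chr9:50603850-50604099, minus strand).
Sdhd: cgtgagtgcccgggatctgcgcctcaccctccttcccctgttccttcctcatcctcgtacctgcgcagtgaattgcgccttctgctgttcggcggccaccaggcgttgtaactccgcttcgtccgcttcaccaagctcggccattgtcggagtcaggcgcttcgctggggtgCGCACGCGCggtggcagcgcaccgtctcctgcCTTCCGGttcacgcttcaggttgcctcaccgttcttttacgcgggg
A match is a run of letters and does not show that the factor binds there.

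How firmly a call stood depended on the lines. mt-Nd2 was called at 24 h in all 15 fits without 1 library and all 5 without 1 line, and mt-Nd4 and mt-Cytb in all 15 and in 4 of 5, ending without A223. Atp5s held in 15 and 4, ending without A218, and Ndufv3 and mt-Nd4l in 15 and 3. Calls of mt-Nd5, mt-Nd1 and Ndufa7 held in 15, 14 and 11 of the library fits and in 2 of 5 line fits each. Those of mt-Atp8, mt-Co1 and mt-Atp6 held in 13, 9 and 6 library fits and in 1 line fit each. Ndufa13, Ndufa3 and Ndufs4 held in 9, 6 and 3 library fits and were not called whichever line was left out. From 4 to 24 h the calls of Ndufa3 and Ndufab1 ended without any of the 5 lines, and that of mt-Cytb held in 1 of 5. Without A223 only 2 members were called, mt-Nd2 and Atp5s, and without A218 or A220 only 6, of 15 with all lines. Over all tested features the share called in either direction was 3.99% without A223, 4.52% without A218 and 10.5% without A220, against 18.8% with all lines. Leaving out single libraries lowered the count to 10 without A217 at 0 h or A225 at 24 h. In these fits 11.8% and 12.9% of all features were called, against 18.8% with all libraries. Taking out A218 or A223 at 0 h, which leaves 1 negative library there, lowered the count as well. Removing a negative line leaves 1 negative library per time, which was assumed to vary like the other groups.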

How the data were processed

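RNA of 15 organoid libraries was ribosomal-RNA depleted and sequenced in pairs, per the labels. The build GRCm38 and kallisto 0.43.1, DESeq2 1.18.1 and DESeq are named, with no order or role, in the submitters' processing notes. The authors' deposited files hold estimated counts per transcript, not normalised, and TPM values, per the file headers. Here the estimated counts of 109304 transcripts per library were summed per gene with GENCODE M21 and rounded; 1295 identifiers without a match held 0.56 to 0.59% of counts. TPM served for levels only. edgeR 4.0.16 (R 4.3.3) fitted 6 group means with TMM scaling over 16462 features kept by its expression filter, with the lines weighted equally and Benjamini-Hochberg adjusted p below 0.05 as a call. On data simulated for the 24 h comparison with 15872 genes, 81% of 1.5-fold and 100% of 2-fold changes were recovered. The simulation gave every gene the same spread and had no effect of line. Smaller changes, such as those called for nuclear members, were not simulated.

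Libraries of a line pair by design, since they are the same organoid line: same-line deviations correlated at 0.348 to 0.452 in inducible and 0.212 to 0.26 in negative lines. Alternatives were a line block, limma-voom 3.58.1, DESeq2 1.42.0, other scaling and filters, GC and length offsets, near copies added, and leaving out libraries or lines. Near copies added together with the block was chosen after seeing the data. The NRF1 and YY1 motifs were shortened to 9-letter cores after the shares of longer forms had been seen. Members and lists were chosen with earlier results of these data known. Named were all mitochondrial members, up to 5 called nuclear members per direction, the highest per complex, alternative isoforms and up to 4 genes per list.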

Additional observations from a re-analysis of the deposited data

How the results depend on the processing

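Medians of mitochondrial and nuclear members moved by less than the spread between lines under every alternative run. Counts of members called moved more. At 4 h, against 0, there were 3 with the line as replicate block, 2 with the block and the GC and length correction, 1 with limma-voom, 1 with DESeq2, 2 with only the compared groups fitted, and 3 with near copies and block, beside 8.87%, 9.91%, 6.7%, 4.45%, 1.04% and 8.92% of all features in that order, against 0.917%. At 24 h, against 15, the counts were 34 with the replicate block, 35 with block and GC correction (24 higher and 11 lower), 31 with limma-voom, and 34 with near copies and block, where 36.5%, 40.4%, 34.1% and 36.5% of all features were called, against 18.8%. For 24 against 4 h, with 8, they were 26, 30, 21 and 28 in that order, beside 36.9%, 40.2%, 34.6% and 37.0% of all features, against 19.2%. With near copies and block, mt-Co2 (0.19, adjusted p = 0.0202) and mt-Co3 (0.15, adjusted p = 0.0147) were called higher from 4 to 24 h, with -0.06 and -0.22 as assigned. These 2 had counts moved back from their copies, and the cause of the other shifts was not tested. Without A217 at 24 h the counts were 1 at 4 h, 17 at 24 h and 13 from 4 to 24 h. The shares of all features were 1.34%, 23.1% and 22.3%. From 4 to 24 h there were 5 without A217 or A225 at 4 h or A220 at 24 h, beside 12.5%, 15.3% and 13.2%. Leaving out A223 at 4 h lowered that count too, with 1 negative library left at that time. Without line A217 there were 0, 13 and 9, beside 0.694%, 17.0% and 15.9% of all features. Leaving out a negative line, with 1 negative library left per time, lowered the counts at 24 h and from 4 to 24 h. The median of mitochondrial members at 24 h lay between 0.27 and 0.45 over all fits without 1 library or 1 line. Differences between responses gave 0 calls in every fit. Depth limits the second Atp5o identifier and the 6 untested members most.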
